A study of Mus musculus with 9 samples.

Results

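Fibroblast growth factor (FGF) signalling was read at 10 genes on 9 arrays of fetal mouse thymus: the ligands Fgf7 and Fgf10, the receptors Fgfr1 and Fgfr2, and the feedback and response genes Spry1, Spry2, Spry4, Etv4, Etv5 and Dusp6. The genes were chosen by name as parts of 1 pathway. Each was represented by 1 transcript cluster, a set of probes summarised to 1 value, among the 22206 clusters of the array. The samples were total RNA of embryonic thymic lobes taken from C57BL/6 mice at e13.5, with 3 arrays of each of 3 genotypes. Wild type was the control. Foxn1933/1089 embryos (Foxn1 mutants) carry a different mutant allele on each copy of Foxn1, the transcription factor that drives thymic epithelial differentiation. Tbx1neo2/neo2 embryos (Tbx1 mutants) carry on both copies an allele known to lower expression of Tbx1, a factor that patterns the pharyngeal pouches. No transgene, Cre or treatment is named for any group, and the labels do not say whether the arrays of a genotype came from separate embryos or from pools. P-values therefore measure the spread between these samples, which may in part be technical.

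FGF7 and FGF10 are secreted by mesenchyme and act on neighbouring epithelium through the IIIb splice form of the receptor FGFR2, and this exchange is known to drive growth of the fetal thymic epithelium. FGFR1 is used more by mesenchyme. A bound receptor turns on the RAS-ERK kinase cascade. That cascade induces the ETS transcription factors Etv4 and Etv5, and it induces its own brakes: the Sprouty proteins, which act between receptor and RAS, and DUSP6, a phosphatase that removes the activating phosphates from ERK. The cluster for Fgfr2 does not tell its splice forms apart.

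Values are the deposited log2 signals, on which a difference of 1 is a 2-fold change, and a difference is given as mutant minus wild type unless stated. A cluster's level can be compared between arrays but not with that of another cluster. The median of the negative control probes lay between 4.27 and 4.94 per array and marks the background. Of the 10 genes, 8 were above it on all 9 arrays, Spry4 on 8 and Fgf7 on 4.

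The 9 arrays were not alike. Wild type replicate 1 stood apart, as did Foxn1 mutant replicate 2, on the first principal component, which held 42.6% of the variance (scores of -109 and -57.4, against 7.69 to 38.3 for the other arrays). The mean of 8 thymic epithelial markers was lower on them by 3.57 and 3.31 than the mean of the other 7 arrays, and the mean of 8 general epithelial markers, such as Krt5 and Krt8, by 1.70 and 1.46. The labelled tissue was otherwise borne out by its defining markers, since at least 7 of the 8 thymic epithelial markers were above background on each of the other 7 arrays, against 4 and 5 on these 2. The mean of the leukocyte markers was lower on these 2 arrays by 3.13 and 3.01. Neuronal markers were 6.46 higher and red cell markers 2.38 higher on wild type replicate 1. Heart muscle markers were 3.89 higher and mesenchymal markers 1.20 higher on Foxn1 mutant replicate 2. The comparisons of the 10 FGF genes are therefore given on all 9 arrays and on the 7 that remain. The Foxn1 cluster read between 7.78 and 10.35 in wild type, 8.73 and 9.67 in Foxn1 mutants, and 8.88 and 10.04 in Tbx1 mutants. The Tbx1 cluster read between 4.25 and 5.85 in wild type (mean 4.88), 4.07 and 4.83 in Foxn1 mutants, and 4.80 and 5.38 in Tbx1 mutants (mean 5.16). It was thus nominally higher, not lower, in Tbx1 mutants than in wild type, by 0.28 ± 0.41 (SE; limma adjusted p = 1.00), and lay within 0.95 of background on every array, so at this signal it does not check the genotype. How either allele of Foxn1 changes its RNA is not given in the labels, so the Foxn1 cluster does not check it either. Uty, a gene of the Y chromosome, read 7.56 to 8.84 in wild type, 2.47 to 3.71 in Foxn1 mutants and 8.47, 3.45 and 3.66 in Tbx1 mutants, so the sex of the embryos and the Foxn1 genotype cannot be told apart.

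Fgf10, a mesenchymal ligand needed for normal growth of the thymus and lung, read 6.26, 6.24 and 7.05 on wild type replicates 1 to 3, 6.39, 8.26 and 7.002 on the Foxn1 mutant arrays, and 6.56, 6.73 and 6.43 on the Tbx1 mutant arrays. The 8.26 of Foxn1 mutant replicate 2 was the only value above 7.05, and the remaining arrays of the 3 genotypes overlapped. Group means were 6.52 ± 0.47 (SD, n = 3) in wild type, 7.22 ± 0.95 (SD, n = 3) in Foxn1 mutants and 6.57 ± 0.15 (SD, n = 3) in Tbx1 mutants. Fgf7, also known as keratinocyte growth factor, read 4.71, 4.59 and 4.60 in wild type, 3.68, 4.93 and 4.56 in Foxn1 mutants, and 3.74, 4.17 and 4.48 in Tbx1 mutants. All 3 Tbx1 mutant values lay below the lowest wild type value, but none of the 3 was above the background of its own array. The size of a difference in Fgf7 RNA is therefore not measured at this signal.

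The receptors differed in which arrays were high. Fgfr1 read 10.01, 8.61 and 8.94 in wild type, 9.004, 10.44 and 8.40 in Foxn1 mutants, and 9.22, 9.06 and 8.59 in Tbx1 mutants. Its highest values were those of the 2 arrays that stood apart, at 1.18 and 1.61 above the mean of the other 7, and among those 7 it ranged from 8.40 to 9.22 with the genotypes overlapping. Fgfr2 read 9.37, 10.35 and 10.91 in wild type, 10.59, 9.92 and 10.23 in Foxn1 mutants, and 9.78, 10.004 and 10.09 in Tbx1 mutants. The same 2 arrays were 0.91 and 0.36 below the mean of the rest. Among the other 7 arrays, the 3 Tbx1 mutants held the 3 lowest Fgfr2 values.

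**Figure D1:**
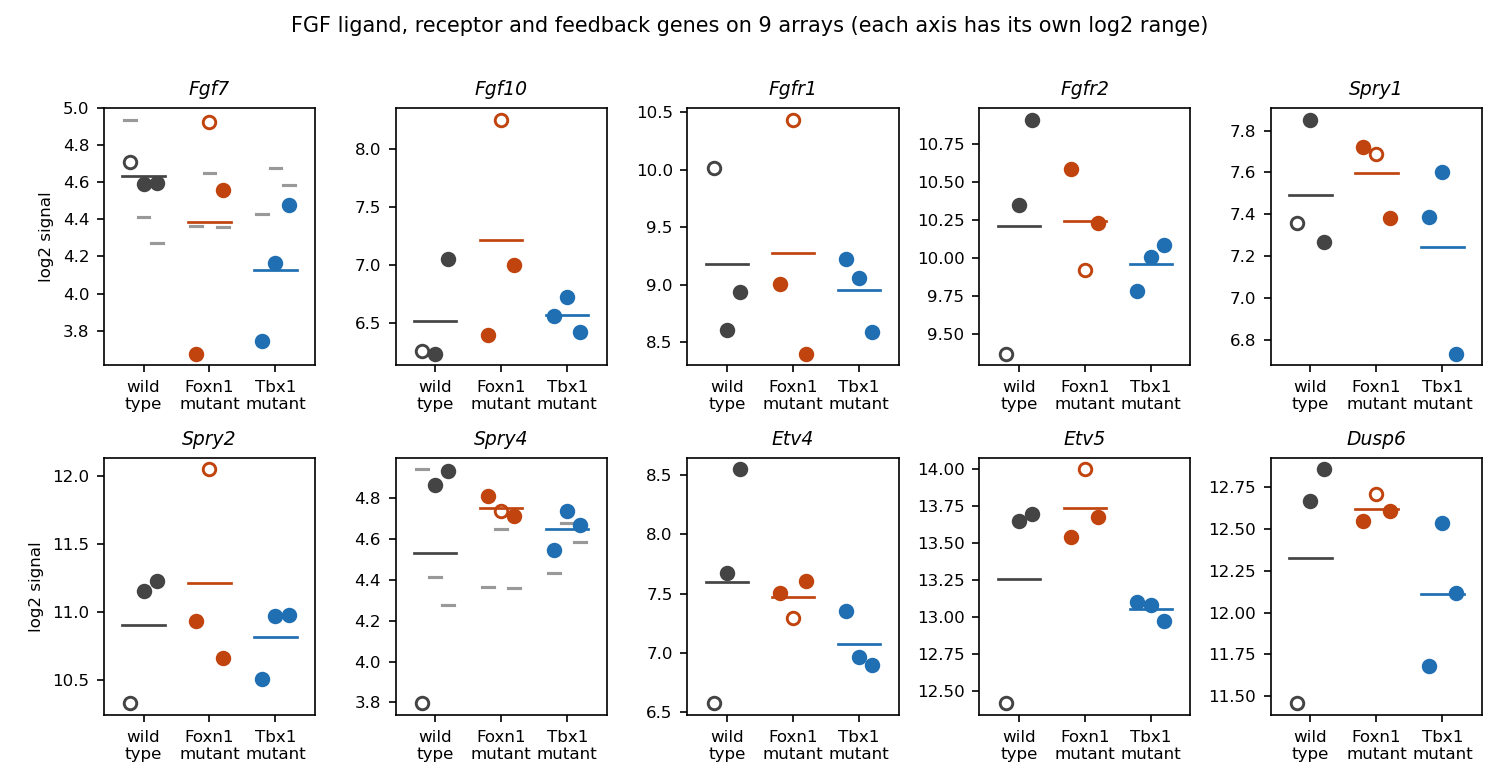
Log2 signal (vertical axis, a separate range for each gene) of the 10 FGF genes on 9 arrays by genotype. Points are arrays, open points are wild type replicate 1 and Foxn1 mutant replicate 2, coloured bars are means of 3 arrays, and grey dashes in the panels of Fgf7 and Spry4 are each array's negative control median. Etv5 is the gene with the tightest Tbx1 mutant group, at 12.97 to 13.10, below all 3 Foxn1 mutant arrays.

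Of the ETS factor genes, Etv5 separated the arrays of the 2 mutants and Etv4 did not. Etv5 read 12.41, 13.65 and 13.70 in wild type, 13.54, 14.00 and 13.67 in Foxn1 mutants, and 13.10, 13.08 and 12.97 in Tbx1 mutants. Every Tbx1 mutant array was below every Foxn1 mutant array, and below the wild type arrays except replicate 1. Etv4 read 6.57, 7.67 and 8.55 in wild type, 7.50, 7.29 and 7.61 in Foxn1 mutants, and 7.35, 6.97 and 6.90 in Tbx1 mutants. Wild type replicates 1 and 3 were the lowest and the highest of the 9 arrays for Etv4, so the wild type group spanned both mutant groups.

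Among the brakes, Dusp6 read 11.46, 12.67 and 12.86 in wild type, 12.55, 12.71 and 12.61 in Foxn1 mutants, and 11.68, 12.54 and 12.12 in Tbx1 mutants. The highest Tbx1 mutant value lay just below the lowest Foxn1 mutant value. Spry2 read 10.33, 11.16 and 11.22 in wild type, 10.93, 12.05 and 10.66 in Foxn1 mutants, and 10.50, 10.97 and 10.98 in Tbx1 mutants, with the 2 arrays that stood apart at its lowest and its highest end. Spry4 was near background, between 4.54 and 4.93 on 8 arrays and at 3.80 on wild type replicate 1. Spry1 ranged from 6.73 to 7.85 with no order by genotype. For none of the 10 genes did all arrays of a genotype lie apart from those of its neighbour in the order of group means.

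For 3 of these genes, Dusp6, Spry2 and Etv5, the 250 bases before the start are shown. The reason is that ETS factors, the class that ERK acts on, bind a short core (GGAA, or TTCC when read on the other strand). All 3 genes were at their lowest on wild type replicate 1, but so were Fgfr2, Spry4 and Etv4, so this does not set them apart. The sequences are from RefSeq on GRCm38.p6, 5′ to 3′ on the gene's strand, with each core in capitals. Dusp6 is at chr10:99262981-99263230 on the plus strand, Spry2 at chr14:105896820-105897069 on the minus strand and Etv5 at chr16:22439571-22439820 on the minus strand.
Dusp6: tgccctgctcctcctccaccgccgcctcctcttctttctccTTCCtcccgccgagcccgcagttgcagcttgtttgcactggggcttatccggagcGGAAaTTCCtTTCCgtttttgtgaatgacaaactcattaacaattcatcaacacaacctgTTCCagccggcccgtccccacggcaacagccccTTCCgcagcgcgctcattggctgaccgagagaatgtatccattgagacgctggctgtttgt
Spry2: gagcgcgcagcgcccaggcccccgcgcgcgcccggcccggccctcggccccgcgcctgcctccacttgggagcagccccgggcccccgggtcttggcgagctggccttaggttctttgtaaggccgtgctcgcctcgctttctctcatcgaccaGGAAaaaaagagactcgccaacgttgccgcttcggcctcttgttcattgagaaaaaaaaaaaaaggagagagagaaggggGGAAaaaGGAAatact
Etv5: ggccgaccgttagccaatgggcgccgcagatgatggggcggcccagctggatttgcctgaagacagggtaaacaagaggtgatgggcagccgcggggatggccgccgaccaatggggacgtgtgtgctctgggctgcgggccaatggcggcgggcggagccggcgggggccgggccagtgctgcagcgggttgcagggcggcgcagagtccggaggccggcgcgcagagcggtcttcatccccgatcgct
The Dusp6 window held 6 cores, and 8.69% of 32851 RefSeq windows of this length held as many or more. Spry2 held 3, the median of all windows, and 54.7% held as many or more. The Etv5 window held 0, while a window before a second Etv5 start at chr16:22438369-22438618 held 4 (33.4% of windows held as many or more). At least 1 core was present in 93.4% of all windows. Both strands were searched. The longer forms CCGGAA (12.03% of windows) and GGAAGT (19.7%), which contain the core, were absent from these windows except for 1 GGAAGT at the second Etv5 start. Of the 10 genes, 7 had an entry in the promoter table. The windows of Fgf7, Fgf10, Fgfr2 and Spry1 held 4, 2, 2 and 1 cores. A match of letters describes the window and is not a measured binding site.

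Foxn1 mutants were compared with wild type first. On 9 arrays 8 of the 10 genes had a positive difference and 2 a negative one, with a median of 0.16 against 0.018 over all clusters. Fgf10 differed most, by 0.70 ± 0.43 (SE; 95% interval -0.27 to 1.67), followed by Etv5 at 0.48 ± 0.33 (-0.26 to 1.23). Fgfr2 differed by 0.035 ± 0.36 and Fgfr1 by 0.097 ± 0.52. None passed limma's moderated test with Benjamini-Hochberg adjustment over all clusters (adjusted p = 1.00 for each of the 10), and 0 of 10 had an unadjusted p under 0.05. In this comparison 0% of all clusters were called and 4.04% had such an unadjusted p. No gene of the 10 had groups that did not overlap, against 8.29% of all clusters. The positive count was 5 without wild type replicate 1, 6 without Foxn1 mutant replicate 2 and 1 without both, when the median became -0.16. On those 7 arrays Fgf10 differed by 0.05 ± 0.33 and Etv5 by -0.067 ± 0.21, and Etv4 had the largest size of difference, -0.56 ± 0.32. In 5 of the 10 genes (Fgf7, Spry2, Spry4, Etv4 and Dusp6) both Foxn1 mutant arrays were then below both wild type arrays, as in 17.1% of all clusters, and 0 of 10 had an unadjusted p under 0.05, against 5.62% (0% of all clusters called). The 95% interval for Fgfr1 on 9 arrays ran from -1.08 to 1.27, which spans a 2-fold difference in either direction.

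Between Tbx1 mutants and wild type, 8 of the 10 genes had a negative difference and 2 (Fgf10 and Spry4) a positive one, with a median of -0.22 against 0.015 over all clusters. Etv4 differed by -0.52 ± 0.42 (SE; 95% interval -1.47 to 0.42), Fgfr2 by -0.25 ± 0.36, Dusp6 by -0.22 ± 0.37 and Etv5 by -0.20 ± 0.33. None passed limma's test (adjusted p = 1.00 for each of the 10), and 0 of 10 had an unadjusted p under 0.05, where 0.0135% of all clusters were called and 3.79% had such an unadjusted p. Fgf7 alone had groups that did not overlap, in the direction of lower in Tbx1 mutants, as did 4.27% of all clusters, and its Tbx1 mutant values were those below background. The positive count was 6 without wild type replicate 3, 3 without Tbx1 mutant replicate 1 or 3, and 1 without wild type replicate 1 or Tbx1 mutant replicate 2. Both comparisons use the same 3 wild type arrays, so a low or high wild type array enters both.

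Without the 2 arrays that stood apart, Fgfr2, Etv4, Etv5 and Dusp6 had the largest differences of the 10 genes between Tbx1 mutants and wild type, all negative, while Spry1 overlapped between the genotypes. Etv4 differed by -1.04 ± 0.29 (SE; 95% interval -1.70 to -0.38), Fgfr2 by -0.68 ± 0.25 (-1.24 to -0.11), Dusp6 by -0.65 ± 0.27 (-1.27 to -0.039) and Etv5 by -0.62 ± 0.19 (-1.06 to -0.19). None passed limma's test over all clusters (adjusted p = 0.414, 0.518, 0.599 and 0.433). In this fit 0.00901% of all clusters were called. These 4 of 10 had an unadjusted p under 0.05 and a negative difference, as did 4.51% of all clusters. In 7 of the 10 genes (Fgf7, Fgfr2, Spry2, Spry4, Etv4, Etv5 and Dusp6) every Tbx1 mutant array was below both wild type arrays, as in 13.6% of all clusters, with the Fgf7 values again below background. Fgf10 differed by -0.073 ± 0.30 and Fgfr1 by 0.19 ± 0.28. In the same fit the epithelial markers had a negative difference for 7 of 8 genes with a median of -0.36, the mesenchymal markers a positive one for 9 of 10 with a median of 0.67, and the leukocyte markers a negative one for 5 of 6 with a median of -0.86. Negative too were 6 of 8 thymic epithelial (median -0.33), 4 of 4 red cell (-1.44) and 4 of 5 skeletal muscle markers (-1.22). Wild type replicates 2 and 3 themselves differed in red cell (means of 11.62 and 14.62) and skeletal muscle markers (8.09 and 5.22). On 9 arrays the mean of 3 parathyroid markers ranged from 11.03 to 13.60 in wild type and from 5.37 to 5.92 in Tbx1 mutants. Of these 3 markers, 2 were called lower in Tbx1 mutants by limma's test. The part of these shifts in the FGF values was not tested. In whole lobes, fewer cells of a type and less RNA per cell cannot be told apart.

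**Figure D2:**
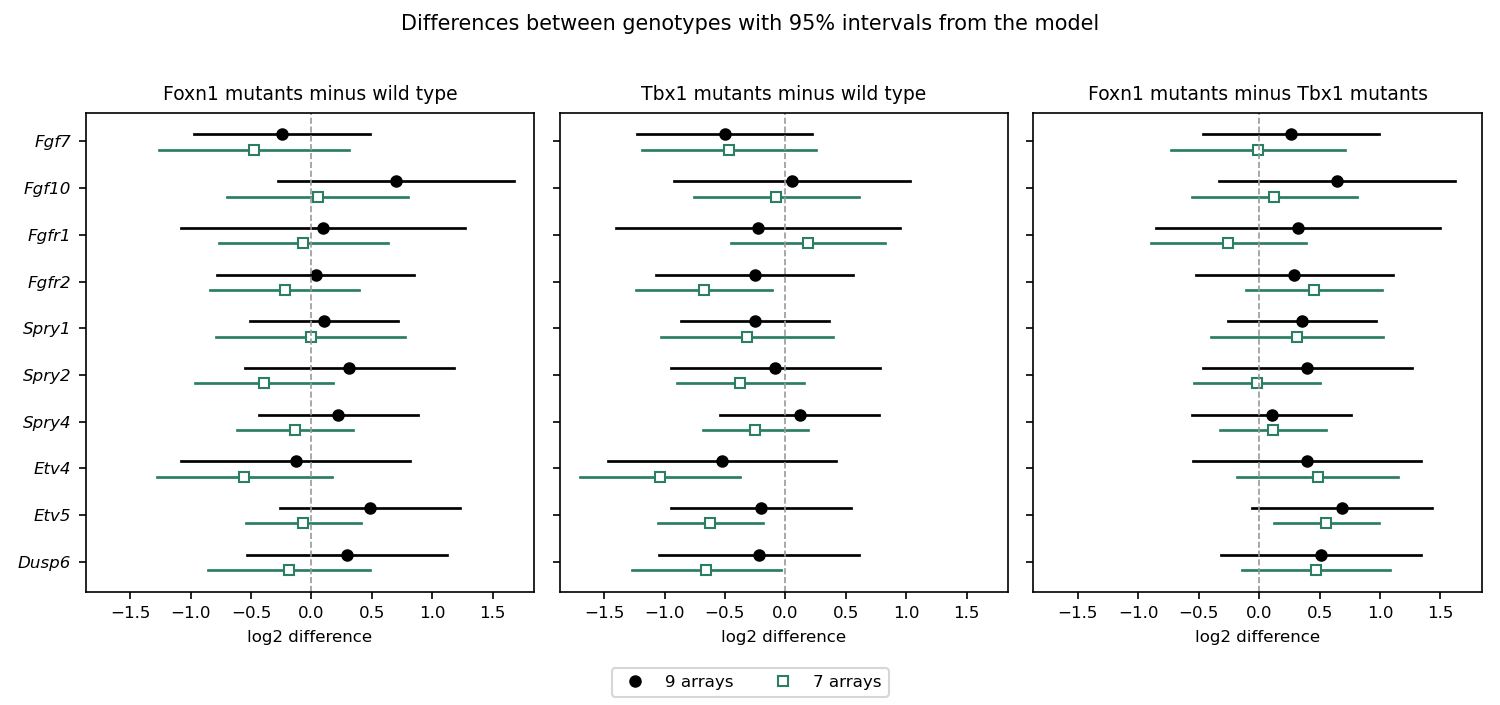
Log2 difference between genotypes (horizontal axis) for the 10 FGF genes in 3 comparisons, with 95% intervals from the limma fit. Black points use all 9 arrays and green squares the 7 arrays left when both that stood apart are dropped. The green squares of Etv4, Fgfr2, Dusp6 and Etv5 lie between -1.04 and -0.62 for Tbx1 mutants minus wild type, with intervals that do not reach 0, before adjustment over all clusters.

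Set directly against each other, Foxn1 mutants were nominally above Tbx1 mutants in all 10 genes on 9 arrays, with a median difference of 0.37 against 0.0084 over all clusters. This count was 7 without Foxn1 mutant replicate 2, and 7 without both arrays that stood apart, with a median of 0.22. Etv5 differed by 0.69 ± 0.33 (SE; 95% interval -0.06 to 1.43), Fgf10 by 0.65 ± 0.43 and Dusp6 by 0.51 ± 0.37. None passed limma's test (adjusted p = 0.999 for each), 0 of 10 had an unadjusted p under 0.05, and 0% of all clusters were called against 2.98% with such an unadjusted p. Etv5 and Dusp6 had every Foxn1 mutant array above every Tbx1 mutant array, as had 5% of all clusters. On 7 arrays Etv5 had a difference of 0.56 ± 0.19 (0.12 to 0.99; limma adjusted p = 0.488), while Fgf10 was at 0.12 ± 0.30. Etv5 was then the 1 gene of 10 with an unadjusted p under 0.05, against 8.53% of all clusters, and 0.00901% were called. Etv4, Fgfr2 and Dusp6 then differed by 0.48 ± 0.29, 0.45 ± 0.25 and 0.47 ± 0.27, and together with Etv5 these 4 of 10 genes had groups that did not overlap, against 14.7% of all clusters. The moderated F test for any difference among the 3 genotypes called none of the 10 on 9 arrays (adjusted p = 1.00 for each), where 0.00901% of all clusters were called. On 7 arrays it also called none of the 10, with the lowest adjusted p at 0.520 for Etv5 and 0.528 for Etv4. In the 7-array fit of Foxn1 minus Tbx1 mutants the parathyroid markers had the largest shift. They had a positive difference for 3 of 3 genes (median 6.07), and 2 were called. Epithelial markers had a positive one for 6 of 8 (median 0.27) and leukocyte markers for 5 of 6 (median 0.61). Mesenchymal markers had a negative difference for 9 of 10 genes (median -0.27), endothelial markers for 5 of 5 (median -0.57) and red cell markers for 3 of 4 (median -0.93). The part of these markers in the FGF differences was not tested.

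The 2 arrays that stood apart pulled the FGF genes in different directions. Wild type replicate 1 was the lowest of the 9 arrays for Fgfr2, Spry2, Spry4, Etv4, Etv5 and Dusp6, by 0.59 to 0.98 below the mean of the other 7. Foxn1 mutant replicate 2 was the highest of the 9 for Fgf7, Fgf10, Fgfr1, Spry2 and Etv5, by 0.61 to 1.63. Both were low in the mean of the epithelial markers, though not in every marker. The mean of the mesenchymal markers was 0.60 below that of the other 7 arrays on the first and 1.20 above it on the second. Fgfr1 was high on both.

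**Figure D3:**
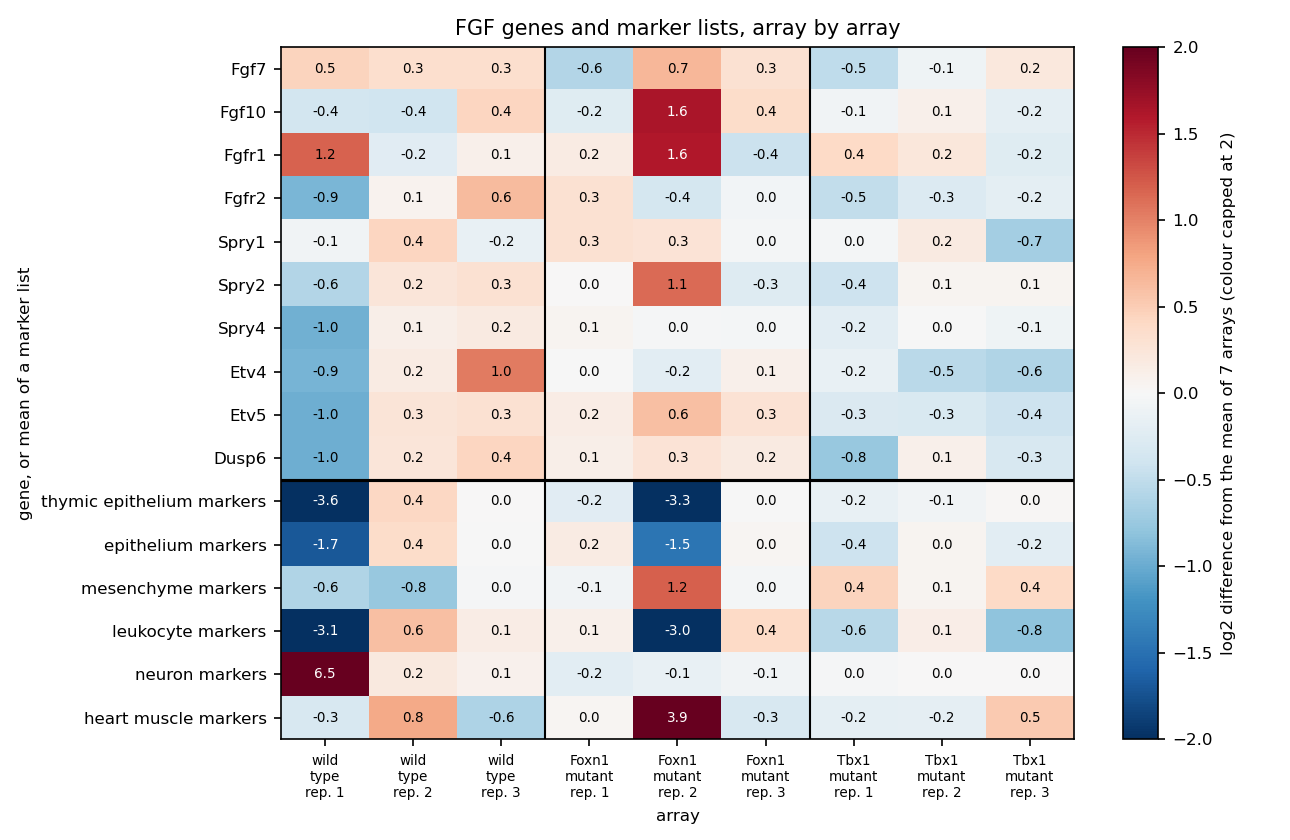
Each cell gives an array's log2 difference from the mean of the 7 arrays without wild type replicate 1 and Foxn1 mutant replicate 2, for the 10 FGF genes (top) and for the means of 6 marker lists (bottom); columns are the 9 arrays and the colour scale stops at 2. Wild type replicate 1 is blue from Fgfr2 to Dusp6 except Spry1, and Foxn1 mutant replicate 2 is red at Fgf10, Fgfr1 and Spry2.

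Each sample title holds 1 of 3 date codes (here A, B and C), and no source used here says what they record. The titles of all wild type and Foxn1 mutant arrays begin with Foxn#, and those of all Tbx1 mutant arrays with Tbx#. What this prefix records is not stated either, and it cannot be told apart from the Tbx1 genotype. Code A holds 1 array of each genotype, and its Foxn1 mutant array is replicate 2, which stood apart. Within code A the Foxn1 mutant was above wild type in 6 of 10 genes (median 0.32) and the Tbx1 mutant in 2 (median -0.66). The Foxn1 mutant was above the Tbx1 mutant in 9 (median 0.96). No other code holds both mutants, so this count rests on Foxn1 mutant replicate 2. Within code B, the mean of 2 Foxn1 mutant arrays was above the wild type array in 3 of 10 (median -0.10). Within code C, whose wild type array is replicate 1, the mean of 2 Tbx1 mutant arrays was above wild type in 7 of 10 (median 0.49). With the code as a block the positive counts were 6, 2 and 7 in the 3 comparisons. The direction between mutants and wild type therefore did not hold within every code.

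Across the 7 arrays, 3 feedback genes followed Fgfr2 in level before adjustment for the number of pairs. Of these, Spry4 spanned only 4.54 to 4.93 and lay at most 0.66 above background, which limits its relation. Spry4 had a Pearson r of 0.90 with Fgfr2 (exact permutation p = 0.0065, Spearman rho 0.86, exact p = 0.024), Etv4 of 0.81 (exact p = 0.032, rho 0.75, exact p = 0.066), and Dusp6 of 0.79 (exact p = 0.034, rho 0.86, exact p = 0.024). Over the 45 pairs of the 10 genes the adjusted exact p for r was 0.098 for Spry4 and 0.22 for Etv4 and Dusp6, so none of these relations passed 0.05. For rho the adjusted exact p was 0.18 for Spry4 and Dusp6 and 0.30 for Etv4. Without wild type replicate 3 and Tbx1 mutant replicate 1, the arrays farthest from the median of Fgfr2, r was 0.68 for Spry4, 0.73 for Etv4 and 0.42 for Dusp6, on 5 arrays. For Spry2 r was 0.70 (exact p = 0.079, adjusted 0.28, rho 0.61, exact p = 0.17) and 0.067 without those arrays, on which its relation rested. Etv5 fell into 2 clusters, the Tbx1 mutants at 12.97 to 13.10 and the other 4 arrays at 13.54 to 13.70, so no r over the 7 arrays is given for it. An r to Fgfr2 as high as that of Spry4 was found in 0.41% of all clusters, and as high as that of Dusp6 in 2.58%. The 7 arrays hold all 3 genotypes and 3 date codes, and no code has enough arrays for a correlation of its own. The 3 Tbx1 mutants had the 3 lowest values of the 7 arrays for Fgfr2, Etv4 and Etv5, so genotype and level are not separate in these relations. Fgfr1 had an r of -0.19 with Spry4, -0.011 with Etv4 and -0.36 with Dusp6 (exact p = 0.69, 0.99 and 0.43, rho -0.11, -0.21 and -0.43). The difference between the relations to Fgfr2 and to Fgfr1 was not tested.

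**Figure D4:**
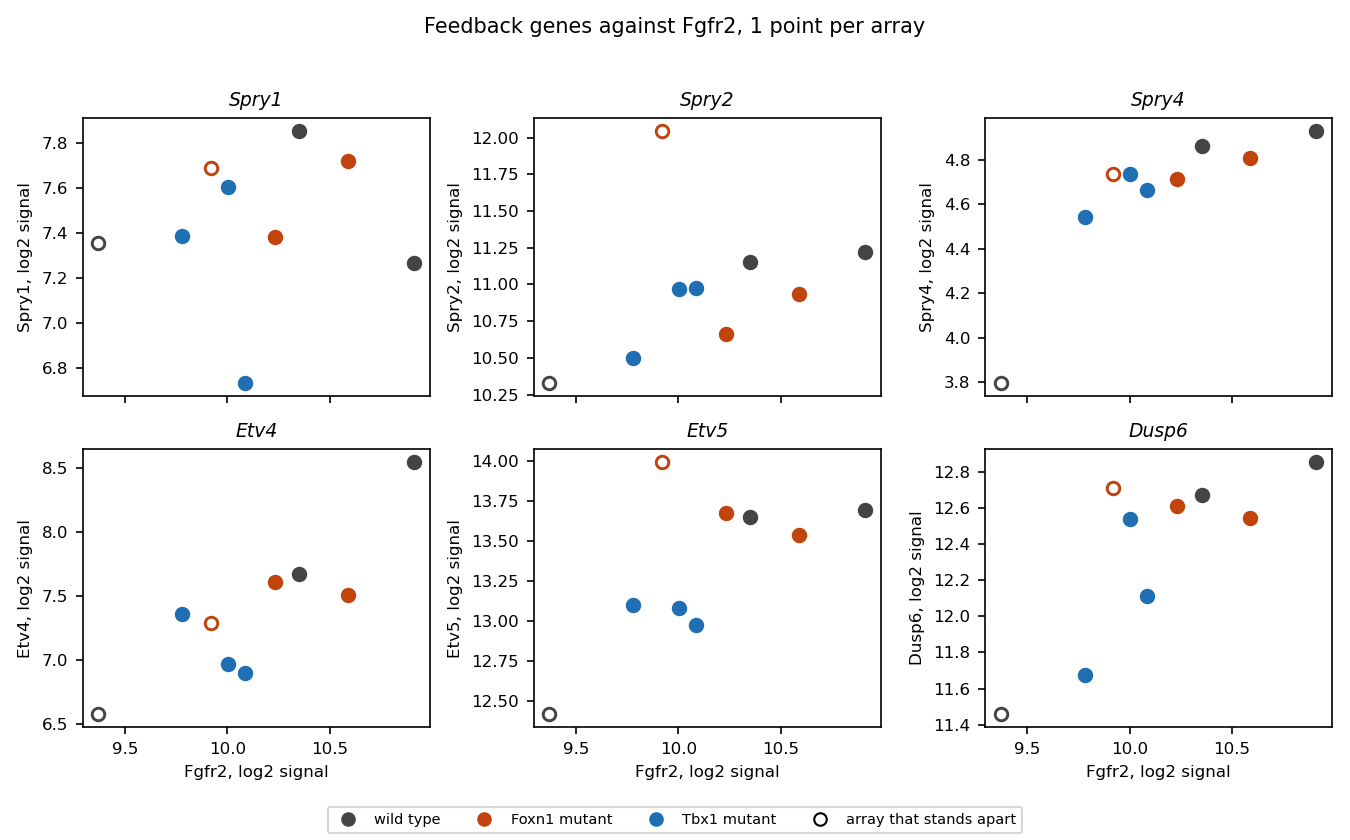
Log2 signal of 6 feedback and response genes (vertical axes) against log2 signal of Fgfr2 (horizontal axis), 1 point per array, coloured by genotype, with open points for wild type replicate 1 and Foxn1 mutant replicate 2. Over the 7 filled points r is 0.90 for Spry4, 0.81 for Etv4, 0.79 for Dusp6, 0.70 for Spry2 and 0.15 for Spry1. The Spry4 points lie near background. In the Etv5 panel the 3 Tbx1 mutants form a low group of their own.

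Of the 10 genes, 3 (Fgf10, Fgfr1 and Etv4) varied by more than an SD of 0.5 over the 9 arrays, and the clusters most like each were sought among 10104 clusters with 1 symbol and a mean above the median. For Fgf10 these were C1qb (r = 0.97 on 9 arrays and 0.83 on 7), Camk1 (0.95 and 0.72) and Ror2 (0.94 and 0.74). For Fgfr1 they were Trim24 (0.97 and 0.86), Rtl8b (0.95 and 0.78) and Slc49a4 (0.95 and 0.88). For Etv4 they were Ube2z (0.95 and 0.93), Rplp0 (0.95 and 0.92) and Psmf1 (0.94 and 0.91). The highest values among so many clusters are a ranking and carry no test.

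Of the rest of the pathway, none of the measured genes passed limma's test in any of the 3 comparisons. Measured were 19 of 20 other FGF family genes and 10 of 10 other receptors, co-receptors and FGF-binding proteins. So were 13 of 19 genes of the relay from receptor to ERK and 14 of 15 other feedback and response genes. The last list held 16 of 18 genes of heparan sulfate, the sugar chain that holds FGFs to their receptors. Among the other FGF family genes 7 of 19 were above background on at least 3 arrays. Fgf18 had the lowest F test p of these, at 6.96, 7.85 and 7.55 in wild type, 8.17, 8.95 and 7.87 in Foxn1 mutants and 8.49, 7.58 and 7.23 in Tbx1 mutants. Every Foxn1 mutant array was above every wild type array for Fgf18, 1 of 19 genes, against 1080 of 22206 clusters. Its difference was 0.88 ± 0.40 (SE; limma adjusted p = 1.00), and 0.32 ± 0.39 without the 2 arrays that stood apart (adjusted p = 0.935). Fgf12 and Fgf22 came next, with differences from wild type of 0.41 and -0.43 in Foxn1 mutants, and of 0.41 and -0.14 on the 7 arrays. The median difference of the 19 FGF family genes was 0.13 in Foxn1 mutants and 0.25 in Tbx1 mutants.

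Among the other receptors, Fgfr3 ranged from 5.08 to 6.09 and Flrt2, a membrane partner of FGF receptors, from 13.24 to 15.15, highest on Foxn1 mutant replicate 2. Fgfr4 spanned 3.69 to 8.25, with both ends set by single arrays. The relay genes, whose products sit between receptor and ERK, had a median difference of -0.11 in Foxn1 mutants and 0.052 in Tbx1 mutants. Sos2, an activator of RAS, differed by -0.38 ± 0.30 and 0.095 ± 0.30 (-0.70 ± 0.26 and 0.11 ± 0.23 on 7 arrays). The kinase gene Braf differed by -0.46 ± 0.36 and -0.28 ± 0.36 (-0.24 ± 0.22 and 0.15 ± 0.20 on 7 arrays). Plcg1, a phospholipase bound by the receptors, differed by -0.30 ± 0.26 and -0.042 ± 0.26 (-0.26 ± 0.24 and 0.16 ± 0.21 on 7 arrays). The Tbx1 mutant differences of Braf and Plcg1 thus changed sign.

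Among the other feedback and response genes, 3 of 14 (Phlda1, Etv1 and Ier3) had all Tbx1 mutant arrays below all wild type arrays, against 4.27% of all clusters. Ier3, named after its values were seen, was above background on 0 of 9 arrays. Phlda1 and Etv1, 2 of 14, had an unadjusted p under 0.05, against 3.79% of all clusters. On 7 arrays 3 of 14 genes (Phlda1, Etv1 and Spred3) had such a p in Tbx1 mutants, against 8.07% of all clusters, and none was called. Phlda1 and Etv1 were lower, and Spred3 was higher by 0.69 ± 0.25 but above background on only 1 of 9 arrays. In Foxn1 mutants on 7 arrays 3 of 14 also had such a p, against 5.62% of all clusters, and none was called. Of these Phlda1 and Spred2 were lower and Spred3 was higher. Phlda1, an ERK-induced gene, read 8.30, 8.20 and 8.42 in wild type, 7.47, 8.29 and 7.65 in Foxn1 mutants, and 7.10, 6.70 and 7.31 in Tbx1 mutants. Its Tbx1 mutant difference of -1.27 ± 0.26 (95% interval -1.86 to -0.68) did not pass limma's test over all clusters (adjusted p = 0.476), and was -1.27 ± 0.24 on 7 arrays (adjusted p = 0.252). In Foxn1 mutants Phlda1 differed by -0.51 ± 0.26 on 9 arrays, where the groups overlapped. On 7 arrays it differed by -0.75 ± 0.26 (limma adjusted p = 0.870), with both Foxn1 mutant arrays below both wild type arrays. That order held for 2 of 14 genes, against 17.1% of all clusters. Etv1, the third gene of the Etv4 and Etv5 family, read 6.73, 7.35 and 6.79 in wild type and 5.92, 6.38 and 6.12 in Tbx1 mutants, a difference of -0.82 ± 0.33 (limma adjusted p = 1.00) that was -0.93 ± 0.28 on 7 arrays (adjusted p = 0.433). Its Foxn1 mutant values of 6.28, 7.55 and 6.94 overlapped with both. Il17rd, a membrane inhibitor of FGF signalling, was higher on every Foxn1 mutant array (5.93 to 7.15) than on every Tbx1 mutant array (5.04 to 5.90). Its difference was 0.81 ± 0.40 (limma adjusted p = 0.999), and 0.44 ± 0.36 on 7 arrays (adjusted p = 0.765). This order held for 2 of 14 genes (Il17rd and Phlda1), against 5% of all clusters. The 14 genes had a median difference of -0.036 in Foxn1 mutants and -0.16 in Tbx1 mutants.

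Of the heparan sulfate genes, 3 of 16 (Sulf1, Gpc4 and Sdc1) had an unadjusted p under 0.05 between Foxn1 mutants and wild type, against 4.04% of all clusters, and 1 of 16 (Sulf1) between Tbx1 mutants and wild type, against 3.79%. On 7 arrays these counts were 1 of 16 (Hspg2), against 5.62%, and 5 of 16 (Sulf1, Sulf2, Gpc1, Gpc3 and Hspg2), against 8.07%, and none was called. Spred2, Spred3, Sulf2, Gpc1, Gpc3, Hspg2, Sdc2 and Hs6st1 were named after their values were seen. Sulf1, which trims sulfate groups from the chains and so dampens FGF binding, read 14.00, 12.92 and 14.00 in wild type, 14.38, 15.16 and 13.91 in Foxn1 mutants, and 14.75, 14.42 and 14.71 in Tbx1 mutants. The Tbx1 mutant arrays were all above the wild type arrays, by 0.99 ± 0.38 (limma adjusted p = 1.00), and by 1.17 ± 0.33 on 7 arrays (adjusted p = 0.424). Sdc1, a core protein that carries the chains, was above wild type on every array of both mutants, by 0.58 ± 0.24 in Foxn1 mutants and 0.49 ± 0.24 in Tbx1 mutants, where the wild type arrays are shared. On 7 arrays it differed by 0.43 ± 0.26 and 0.53 ± 0.24. On 9 arrays, 2 of 16 genes (Sdc1 and Sdc2) had every Foxn1 mutant array above every wild type array, against 1080 of 22206 clusters. For Tbx1 mutants this held for 3 of 16 (Sulf1, Sdc1 and Hs6st1), against 1151 of 22206 clusters. Gpc4, a core protein on the cell surface, differed by 0.79 ± 0.33 in Foxn1 mutants and 0.30 ± 0.33 in Tbx1 mutants, with overlapping arrays, and by 0.30 ± 0.29 and 0.0061 ± 0.27 on 7 arrays. Mesenchymal markers also had positive differences, for 10 of 10 genes in Foxn1 mutants (median 0.87) and 9 of 10 in Tbx1 mutants (median 0.92), with a summed level given as the list's mean of 10.34 to 11.07 in wild type, 11.03 to 12.30 in Foxn1 mutants and 11.16 to 11.54 in Tbx1 mutants. Their part in the heparan sulfate values was not tested.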

How the data were processed

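RNA of 9 samples was hybridised to Clariom S mouse arrays after amplification and biotin labelling, per the labels' protocols. The authors' deposited log2 values, 1 per transcript cluster and array, were used as given. No source used here gives the software, normalization or genome build behind them. Of 28846 features, 6640 control features were left out of all tests. Array medians ran from 5.09 to 5.20. Precision is limited by the number of arrays.

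In limma 3.58.1 (R 4.3.3, with data.table at version 1.17.8), 1 linear model over the 9 arrays gave each genotype a mean, with moderated two-sided tests (empirical Bayes). Benjamini-Hochberg adjustment ran over 22206 clusters, and an adjusted p under 0.05 was called. The fit was tested on simulated data. Exact permutation tests (scipy 1.17.1, two-sided) were used for correlations over 7 arrays. A permutation of 3 arrays against 3 cannot give a p below 0.1. Figures were drawn in Python 3.11.15 with matplotlib 3.10.9 and pandas 2.3.3.

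Groups follow the genotype in the labels. Replicate numbers follow the order of the samples and pair nothing. The 10 members, the 5 lists of other FGF pathway genes, the marker lists and the 2 arrays left out together were chosen with earlier results of these data known. Named genes are all 10 members, Foxn1 and Tbx1, the 3 genes of lowest F test p in each pathway list among those above the negative control median on at least 3 arrays, the markers beside a result, and the 3 clusters most correlated with each member whose SD exceeded 0.5. Uty was added after its values were seen. Alternatives were other normalizations, filters, moderation, weights, thresholds, blocks and samples in the fit, and leaving out arrays.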

Additional observations from a re-analysis of the deposited data

How the results depend on the processing

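No paired analysis was possible because the labels carry no shared replicate numbers, and the title codes, which genotypes share, were fitted as a block instead. None of the 10 FGF genes was called under any alternative run. Of 30 differences between genotypes, 7 kept their sign in all of their alternatives, and 52 of 624 alternative values had the other sign. Many of the 624 values could not change sign. Another threshold, moderation or filter leaves a difference as it is, and so does leaving out arrays of the third genotype. The 52 of 624 is therefore no measure of how stable the signs are. With array weights, the differences of other sign were, for Foxn1 mutants minus wild type, Fgfr2 -0.085, Spry2 -0.080 and Dusp6 -0.0061, for Tbx1 mutants minus wild type, Fgfr1 0.022 and Spry4 -0.10, and for Foxn1 minus Tbx1 mutants, Fgf7 -0.012. With the title code as a fixed block they were, in the same order, Fgfr2 -0.19 and Spry1 -0.0056, then Fgf10 -0.16 and Etv5 0.0028, then Fgfr2 -0.16, Spry4 -0.29 and Etv4 -0.23. Without the 2 arrays that stood apart they were Fgfr1 -0.067, Fgfr2 -0.22, Spry1 -0.0079, Spry2 -0.39, Spry4 -0.13, Etv5 -0.067 and Dusp6 -0.19, then Fgf10 -0.073, Fgfr1 0.19 and Spry4 -0.25, then Fgf7 -0.010, Fgfr1 -0.26 and Spry2 -0.020. Leaving out each array in turn gave, for Foxn1 mutants minus wild type, Dusp6 -0.14 to 0.56, Etv4 -0.64 to 0.34, Fgf7 -0.51 to 0.11, Fgfr1 -0.48 to 0.54, Fgfr2 -0.39 to 0.39, Spry1 -0.0090 to 0.28, Spry2 -0.10 to 0.59 and Spry4 -0.14 to 0.42. For Tbx1 mutants minus wild type it gave Dusp6 -0.65 to 0.047, Etv5 -0.62 to 0.019, Fgf10 -0.086 to 0.32, Fgfr1 -0.52 to 0.19, Fgfr2 -0.68 to 0.10, Spry1 -0.43 to 0.0029, Spry2 -0.37 to 0.076 and Spry4 -0.25 to 0.32. For Foxn1 minus Tbx1 mutants it gave Fgf7 -0.010 to 0.62, Fgfr1 -0.26 to 0.76 and Spry2 -0.020 to 0.67. The causes were not tested.

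The number of FGF genes with a positive difference ranged from 5 to 8 for Foxn1 mutants minus wild type, from 1 to 6 for Tbx1 mutants minus wild type and from 7 to 10 for Foxn1 minus Tbx1 mutants when each array was left out. It was 1, 1 and 7 without both arrays that stood apart, and 5 for Foxn1 mutants minus wild type with array weights. Without the clusters of mean below the median, which removes Fgf7 and Spry4, it was 1 for Tbx1 mutants minus wild type. All clusters called numbered 0, 3 and 0 in the 3 comparisons. They were 17 for Tbx1 mutants minus wild type and 4 for Foxn1 minus Tbx1 mutants with array weights, 1 for Tbx1 mutants minus wild type with the title code as a fixed block, and 1, 0 and 2 with only the arrays of the genotypes compared. For Foxn1 minus Tbx1 mutants they were 2 at an adjusted p of 0.1 and 2 without both arrays. Leaving out each array gave 0 to 3, 0 to 20 and 0 to 3. The title code as a random block had a consensus correlation of 0.063. Another cluster of a symbol was not run, since each FGF gene has 1. Signal over background limits Fgf7 and Spry4.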
